A study of Caenorhabditis elegans with 12 samples.

Results

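The genes described here make up the presynaptic release machinery and the enzymes and transporters that supply transmitter in *C. elegans*. They were taken from a fixed list of 39 gene symbols, chosen with earlier results of these data known. Each symbol was matched to 1 of the 46925 gene identifiers in every file. 22 of them belong to release (fusion, priming, vesicle transport, active zone, endocytosis and 2 G alpha subunits), 13 to the synthesis or vesicular loading of transmitters, and 4 to neuropeptide processing. RNA came from whole animals fed HT115 bacteria, at day 1 (D1) or day 7 (D7) of adulthood, with 3 libraries in each of 4 groups. The groups were *sams-1* by label at D1 and at D7, and wild type at D1 and at D7. The labels give all 12 libraries a wild-type genotype and call the *sams-1* groups RNAi and the wild-type groups control, while the study's text speaks of *sams-1(lof)* animals, so the sources used here do not settle whether RNAi or a loss-of-function allele was used. Replicates are numbered 1, 3 and 5, and the study describes them as independent biological replicates.

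Chemical transmission starts when a vesicle docked at the presynaptic membrane fuses with it after calcium enters. The SNARE proteins synaptobrevin, syntaxin and SNAP-25 zip together to drive that fusion, synaptotagmin senses the calcium, and priming factors such as UNC-13 and UNC-18 make the SNAREs ready. Endocytic proteins then take the membrane back, and transporters refill the vesicles with acetylcholine, GABA, glutamate or a monoamine. Neuropeptides leave from dense-core vesicles after a convertase and a carboxypeptidase have cut their precursors. In *C. elegans* these genes were largely found through mutants with uncoordinated movement or altered egg laying.

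The libraries held between 3939023 and 7568388 expected counts. RNA of *sams-1* itself, the S-adenosylmethionine synthase gene that was targeted, went against the label. Its TPM (a level corrected for transcript length and for the size of the library) was 105, 90.7 and 99.0 in D1 libraries labelled *sams-1* and 76.5, 51.4 and 95.7 in wild type, and the groups overlapped. At D7 it was 18.2, 35.2 and 25.7 in the libraries labelled *sams-1* and 6.58, 10.1 and 8.49 in wild type, so all of the *sams-1* values were higher. For *sams-1* edgeR gave a log2 fold change of 0.46 at D1 (SE 0.26, adjusted p = 0.146) and of 1.72 at D7 (SE 0.27, adjusted p = 0.000318). Every direction below is therefore between libraries by label. Whole animals were sampled, so fewer cells of a type and less RNA per cell cannot be told apart. Markers of other tissues moved with the label: 14 of 20 germ line genes fell at D1 and 20 of 20 at D7, with summed TPM of 573 to 1754 in *sams-1* libraries and 4597 to 5926 in wild type at D1, and of 1628 to 2085 and 5939 to 6023 at D7. Of 25 body wall muscle genes 11 rose at D1, and at D7 19 rose and 1 fell. Summed TPM of that muscle list was 7011 to 13440 in *sams-1* libraries and 2078 to 4712 in wild type at D1, and 2390 to 3719 and 1252 to 1657 at D7. Of 16 intestinal genes 13 rose at D1 and 12 at D7. Of 17 oocyte genes 9 fell at D1 and 15 at D7. Of 7 pharyngeal genes 2 rose at D1 and 7 at D7, and of 10 epidermal genes 7 rose at each age. Among the tissue lists, the epidermal list had the highest median log2 fold change at D1, 7.16 over the 9 genes tested. Its median at D7 was 2.59. Summed TPM of the epidermal list at D1 was 3512 to 7221 in *sams-1* libraries and 905 to 1864 in wild type. The part of epidermal tissue in the label contrasts was not tested. Of 9 sperm genes, 0 of 7 tested were called at D1 and 3 of 5 rose at D7. No gene of the germ line, muscle, intestine or oocyte lists was at 0 in all libraries of a group, and the part of these tissues in the results below was not tested. Of 16 neuronal genes outside the synapse, 3 rose and 3 fell at D1 (18.8% each), and 7 rose and 4 fell at D7 (43.8% and 25%). Beside all of these lists, 17.4% of all genes tested were called higher and 16.8% lower at D1. At D7 those shares were 35.6% and 29.4%. The neuronal list went both ways, so it does not give the level of neuronal RNA as a whole.

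**Figure D1:**
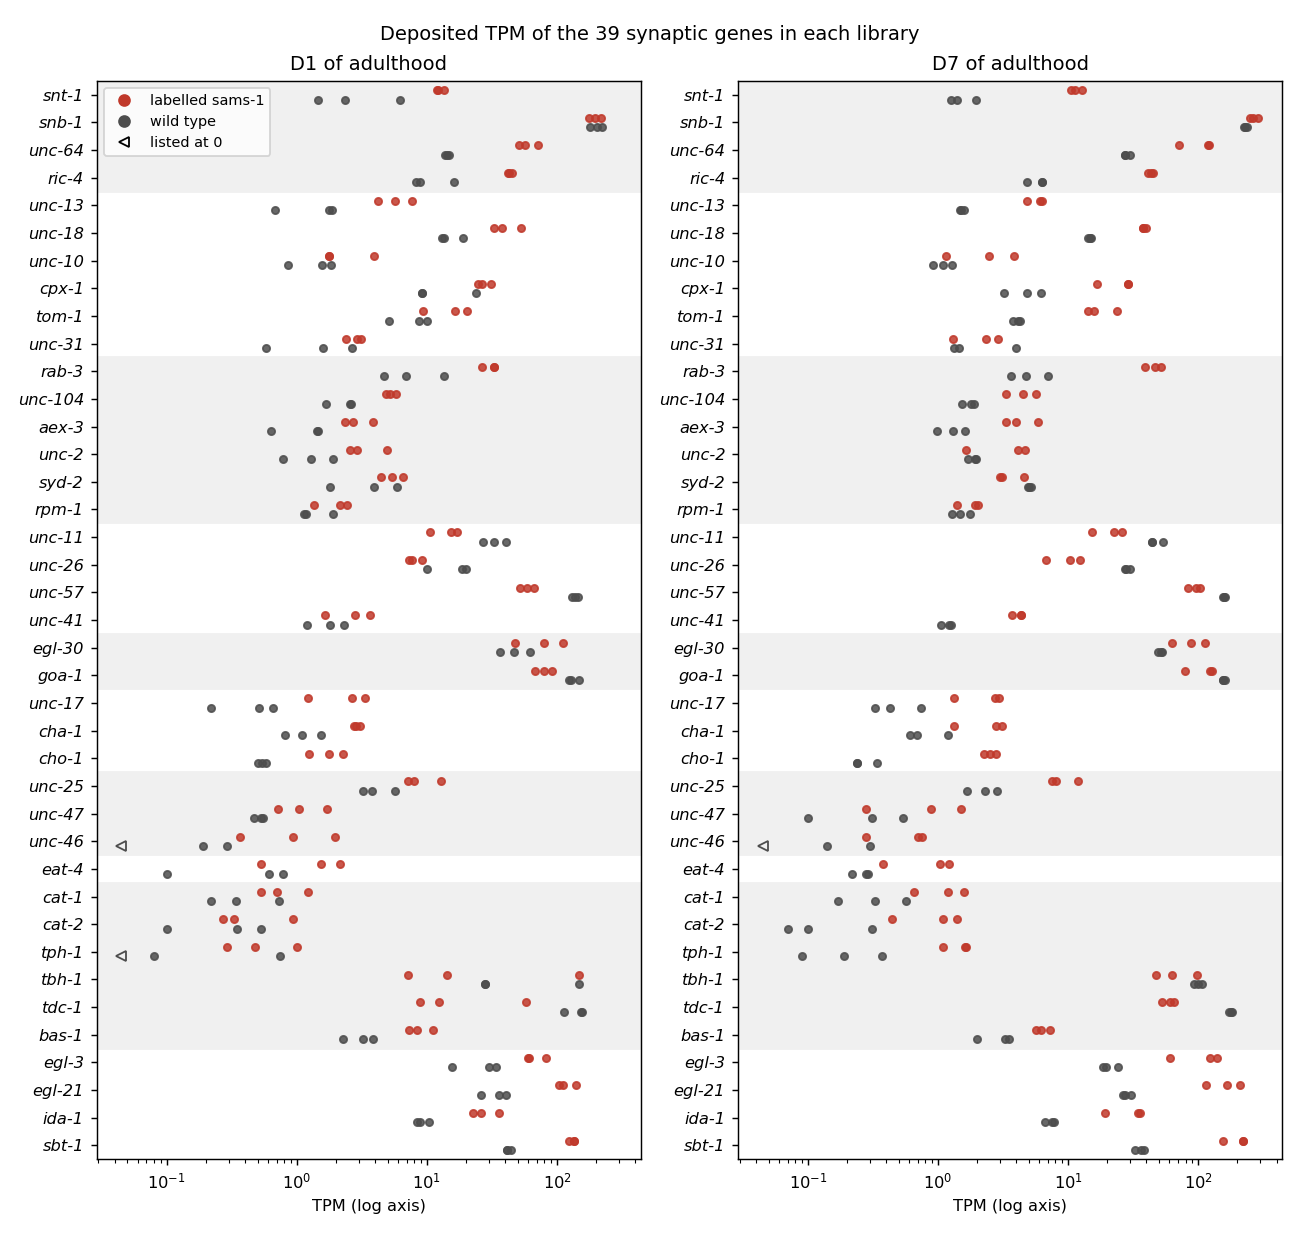
TPM on a log axis for all 39 members (rows, shaded by role), with each point 1 library, *sams-1* libraries in red above wild type in grey, at D1 and at D7. *snb-1* lies near 200 TPM in every D1 library, while *rab-3*, *ric-4* and the 4 neuropeptide processing genes have all *sams-1* points to the right of all wild-type points at both ages. Open triangles mark *unc-46* and *tph-1* libraries listed at 0.

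At D7 most of the synaptic genes were higher in the libraries labelled *sams-1*. 34 members passed the filter on low counts and 21 of them rose, against 35.6% of all genes tested called higher, while 4 fell, against 29.4% called lower (a call is an adjusted p under 0.01). The median log2 fold change of the members tested was 1.51, against 0.13 for all 12242 genes tested. At D1, 33 members were tested, of which 12 rose and 1 fell, against 17.4% and 16.8% of all 12956 genes tested called higher and lower, and the member median was 1.40 against 0.58. The D1 calls had adjusted p values close to the threshold, and 0 members rose without wild-type replicate 1, wild-type replicate 3, *sams-1* replicate 3 or *sams-1* replicate 5, with 6 rising without wild-type replicate 5 and 7 without *sams-1* replicate 1. The loss was not particular to the members, since those 4 fits called 5, 0, 0 and 12 genes higher among all genes, and the last pair of fits called 9.2% and 19.7% of all genes higher. The member medians in the 4 fits were 1.37, 1.13, 1.44 and 1.17. At D7 the count of members that rose stayed between 18 and 27 whichever library was left out.

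Some members passed the filter only because they were well counted in the *sams-1* libraries, namely *unc-17*, *cha-1* and *cho-1* at D1 and these with *tph-1* at D7. With every gene that had a count in the fit, 23 of all 39 members rose and 5 fell at D7, and 6 rose and 2 fell at D1. In these fits 24.7% of all genes were called higher and 20% lower at D7, and 8.12% and 11.5% at D1. On the deposited TPM, with no test, all *sams-1* values lay above all wild-type values for 21 members at D1 and 26 at D7, where 34% and 34.1% of all genes with a value did so. All *sams-1* values lay below for 5 members at D1 and 6 at D7, where 24.3% and 24.9% of all genes did so. The 5 were *unc-11*, *unc-26*, *unc-57*, *goa-1* and *tdc-1*, and *syd-2* joined them at D7. Across the 33 members tested at both ages the log2 fold changes at D1 and D7 had a Pearson r of 0.88, given as a description across genes from separate libraries, and 32 members had the same sign.

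**Figure D2:**
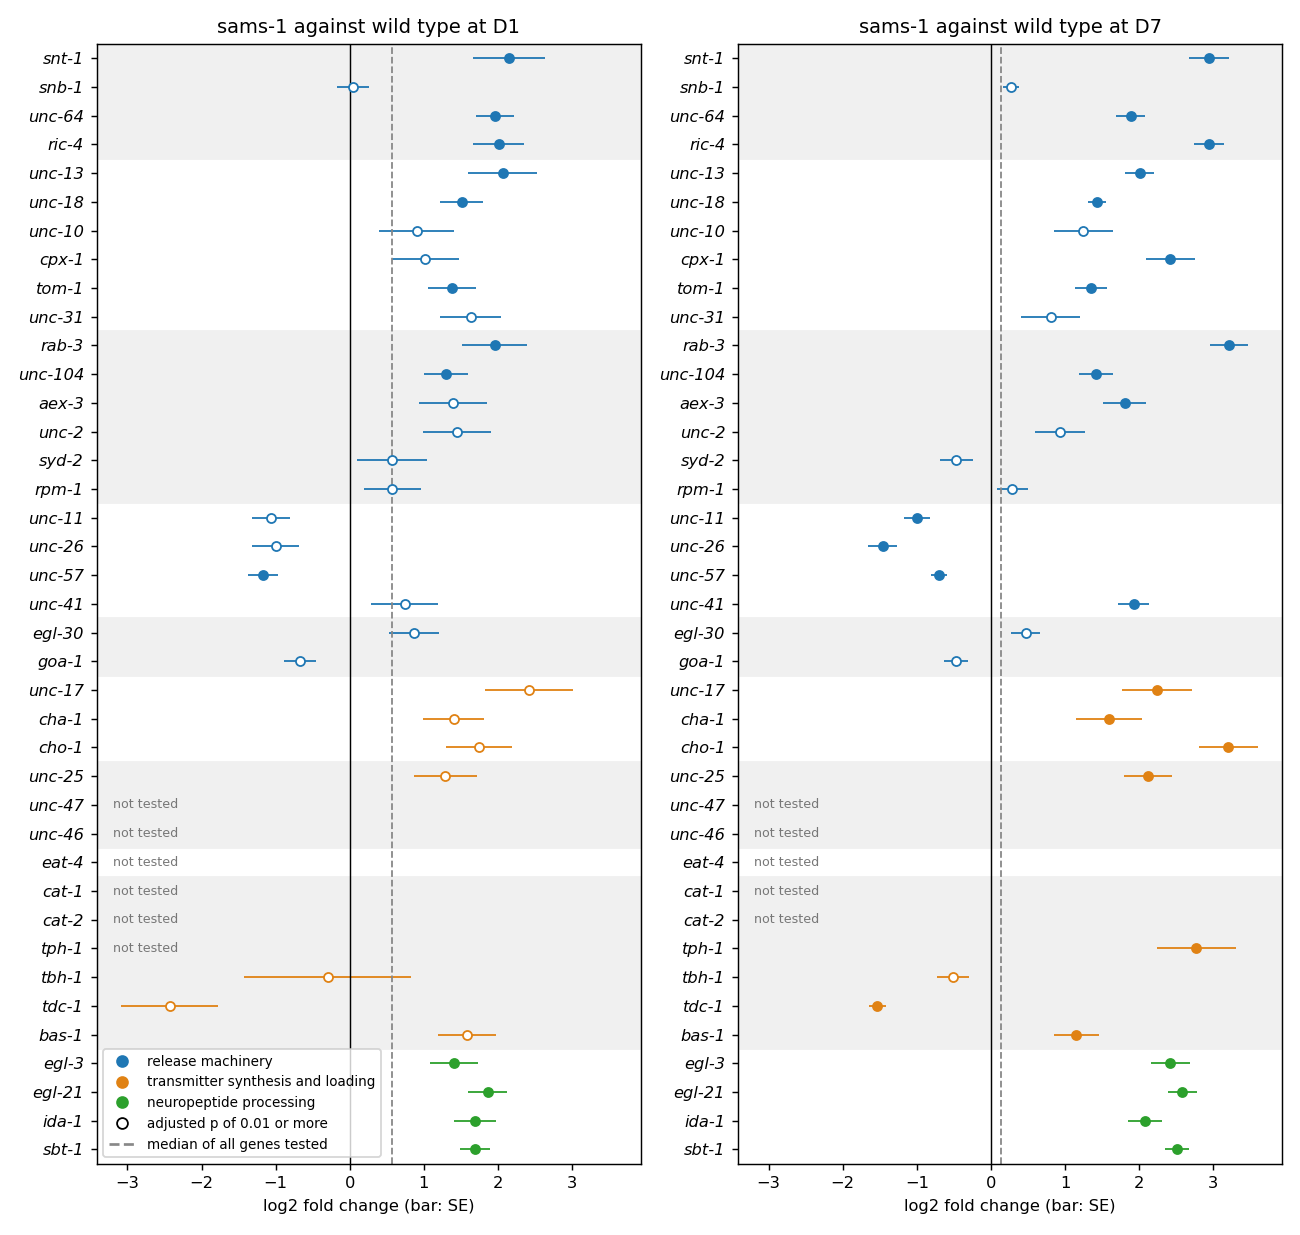
Log2 fold change with its SE for the members tested, *sams-1* against wild type, at D1 and at D7, coloured by class, with filled points for an adjusted p under 0.01 and a dashed line at the median of all genes tested (0.58 and 0.13). The endocytosis genes *unc-11*, *unc-26* and *unc-57* and the tyrosine decarboxylase gene *tdc-1* lie left of 0 at both ages, and the longer bars at D1 accompany fewer filled points.

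Of the 4 genes for the SNARE core and its calcium sensor, 3 rose at both ages. *snb-1* passed at neither in the main edgeR fit (TMM factors on the 6 libraries of that age). At D7 *snb-1* was called higher with upper-quartile factors or library totals, and lower with scaling on body wall muscle genes. *ric-4*, the SNAP-25 gene (chromosome V, 10261131 to 10270314 of WBcel235, minus strand), stood at 43.1, 41.7 and 45.02 TPM in *sams-1* libraries and 8.90, 8.24 and 16.3 TPM in wild type at D1. At D7 *ric-4* stood at 43.4, 44.9 and 41.3 TPM in *sams-1* libraries, against 6.25, 6.33 and 4.83 TPM in wild type. The *sams-1* values hardly differed between the ages and the groups were well separated. For *ric-4* edgeR gave a log2 fold change of 2.01 at D1 (SE 0.35, adjusted p = 0.00407) and of 2.95 at D7 (SE 0.20, adjusted p = 6.1e-06). *snt-1*, for the calcium sensor synaptotagmin, had 12.0, 13.5 and 12.2 TPM in *sams-1* libraries against 2.36, 1.47 and 6.19 TPM in wild type at D1, and 12.9, 11.2 and 10.6 against 1.26, 1.41 and 1.97 TPM at D7. The syntaxin gene *unc-64* had 51.3, 70.8 and 56.6 TPM in *sams-1* libraries and 14.8, 14.3 and 13.7 TPM in wild type at D1, and 119.5, 70.6 and 121 against 29.97, 27.4 and 27.5 TPM at D7. It shares 64 exonic bases with *set-25* on the opposite strand, and strand was not used in counting.

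*snb-1* encodes synaptobrevin, the SNARE carried by the vesicle (chromosome V, 6655562 to 6656501, minus strand). It was the member with the highest mean TPM in all 4 groups, at 177, 197 and 220 TPM in *sams-1* libraries and 179, 223 and 201 TPM in wild type at D1. At D7 its TPM was 264, 286 and 251 in *sams-1* libraries and 228, 225 and 237 in wild type. The groups overlapped at D1 and did not at D7, where the mean was 267 ± 18.02 TPM in *sams-1* libraries and 230 ± 6.29 TPM in wild type (SD, n = 3 each). For *snb-1* edgeR gave a log2 fold change of 0.04 at D1 (SE 0.21, adjusted p = 0.864) and of 0.27 at D7 (SE 0.11, adjusted p = 0.0518), and its sign turned under several scalings and other settings at D1 and under muscle and neuronal scaling at D7.

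Among the 6 genes that prime vesicles or hold fusion back, *unc-13*, *unc-18* and *tom-1* rose at both ages and *cpx-1* passed at D7 but not at D1. *cpx-1* encodes complexin, which clamps the assembled SNAREs (chromosome I, 1594649 to 1596216, minus strand). At D1 it had 31.02, 26.7 and 24.6 TPM in *sams-1* libraries against 9.14, 9.21 and 24.0 TPM in wild type. At D7 it had 29.1, 16.5 and 28.7 TPM in *sams-1* libraries against 3.24, 4.84 and 6.22 TPM in wild type. Wild-type replicate 5 at D1 lay just under the lowest *sams-1* library, and at D7 the groups were far apart. For *cpx-1* edgeR gave a log2 fold change of 1.02 at D1 (SE 0.45, adjusted p = 0.0798) and of 2.42 at D7 (SE 0.33, adjusted p = 0.000134).

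*unc-31* encodes CAPS, needed for release from dense-core vesicles (chromosome IV, 12773867 to 12788354, plus strand). Its expected counts at D1 were 57, 58 and 94 in *sams-1* libraries and 25, 17 and 16 in wild type. At D7 they were 61, 19 and 65 in *sams-1* libraries and 24, 33 and 38 in wild type, where *sams-1* replicate 3 was low. On the TPM scale wild-type replicate 1 at D7 stood apart at 4.00, above the *sams-1* values of 2.35, 1.3 and 2.92, although its expected count was the lowest of its group. For *unc-31* edgeR gave a log2 fold change of 1.64 at D1 (SE 0.41, adjusted p = 0.0123) and of 0.81 at D7 (SE 0.40, adjusted p = 0.0885). *unc-13*, the priming factor, had 5.70, 4.22 and 7.74 TPM in *sams-1* libraries against 1.88, 0.68 and 1.77 TPM in wild type at D1, and 6.09, 4.85 and 6.34 against 1.5, 1.60 and 1.49 TPM at D7. *unc-18*, the syntaxin-binding partner, had 32.96, 37.9 and 52.6 TPM in *sams-1* libraries and 19.01, 12.99 and 13.5 TPM in wild type at D1, and 37.9, 37.9 and 39.5 against 14.8, 14.1 and 15.1 TPM at D7. The other 2 were *tom-1*, the inhibitory tomosyn, and *unc-10*, the active-zone RIM. *tom-1* had a mean of 17.95 TPM in *sams-1* libraries and 4.06 TPM in wild type at D7. The TPM groups of *unc-10* overlapped at both ages, and it passed at neither in the main edgeR fit. At D7 *unc-10* was called higher with upper-quartile factors, library totals, every gene that had a count or a replicate block, and without *sams-1* replicate 3.

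Vesicle transport, active zone and calcium channel genes ranged from the largest rise of any member to no called change. *rab-3*, the small GTPase on synaptic vesicles (chromosome II, 5721767 to 5727853, minus strand), had the highest log2 fold change among members at D7. At D1 *rab-3* stood at 26.4, 33 and 32.7 TPM in *sams-1* libraries and 6.89, 4.72 and 13.4 TPM in wild type. At D7 it stood at 52.2, 39.2 and 46.5 TPM in *sams-1* libraries and 3.64, 7.02 and 4.74 TPM in wild type. Neither age had any overlap. For *rab-3* edgeR gave a log2 fold change of 1.96 at D1 (SE 0.44, adjusted p = 0.00841) and of 3.21 at D7 (SE 0.25, adjusted p = 8.64e-06). *rab-3* shares 25 exonic bases with *damt-1* on the opposite strand.

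*unc-104*, the kinesin that carries vesicle precursors down the axon, rose at both ages, and *aex-3*, an exchange factor for RAB-3, rose at D7. Their mean TPM at D7 was 4.49 and 4.40 in *sams-1* libraries, against 1.75 and 1.297 in wild type. *unc-2*, the presynaptic calcium channel, and *rpm-1*, a ubiquitin ligase of the presynaptic terminal, passed at neither age in the main edgeR fit. *unc-2* was called higher at D1 in the joint fit of all 12 libraries, and at D7 with upper-quartile factors or library totals. *syd-2*, the liprin-alpha that organises the active zone (chromosome X, 10549106 to 10555239, minus strand), was the lowest of this group at D7. It had 4.46, 5.42 and 6.58 TPM in *sams-1* libraries and 5.93, 3.92 and 1.79 TPM in wild type at D1, with overlap. At D7 the values were 4.56, 3.00 and 3.10 TPM in *sams-1* libraries and 4.99, 4.90 and 5.21 TPM in wild type. For *syd-2* edgeR gave a log2 fold change of 0.57 at D1 (SE 0.48, adjusted p = 0.305) and of -0.47 at D7 (SE 0.22, adjusted p = 0.0773), the only member tested at both ages with opposite signs.

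The genes that recover vesicle membrane were mostly lower in the libraries labelled *sams-1*. Of the 4, *unc-57* fell at D1, while *unc-57*, *unc-11* and *unc-26* fell and *unc-41* rose at D7. *unc-57* encodes endophilin, which shapes the vesicle neck (chromosome I, 4675133 to 4679448, plus strand). At D1 it had 59.0, 51.8 and 66.2 TPM in *sams-1* libraries and 146, 138 and 130 TPM in wild type. The D7 values were 103.9, 83.7 and 96.6 TPM in *sams-1* libraries and 162, 155 and 159 TPM in wild type. All *sams-1* libraries lay below all wild-type libraries at both ages. For *unc-57* edgeR gave a log2 fold change of -1.17 at D1 (SE 0.20, adjusted p = 0.00407) and of -0.70 at D7 (SE 0.11, adjusted p = 0.000303), and the D1 call is lost without any single library other than *sams-1* replicate 1.

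*unc-26* encodes synaptojanin, the lipid phosphatase that strips clathrin from vesicles (chromosome IV, 13261555 to 13272516, minus strand). Its TPM was 7.66, 7.25 and 9.19 in *sams-1* libraries and 18.6, 20.2 and 10.1 in wild type at D1. At D7 it was 10.3, 6.81 and 12.2 in *sams-1* libraries and 27.7, 27.2 and 29.7 in wild type. The groups were separate at both ages, narrowly so at D1 through wild-type replicate 5. For *unc-26* edgeR gave a log2 fold change of -1.001 at D1 (SE 0.32, adjusted p = 0.0289) and of -1.46 at D7 (SE 0.19, adjusted p = 0.000106). *unc-11*, for the clathrin adaptor AP180 (chromosome I, 3798396 to 3805739, minus strand), had 15.2, 10.5 and 17.2 TPM in *sams-1* libraries and 40.4, 27.2 and 32.8 TPM in wild type at D1. At D7 it had 25.9, 15.2 and 22.4 TPM in *sams-1* libraries and 44.01, 44.3 and 53.8 TPM in wild type. Again no *sams-1* value reached a wild-type value. For *unc-11* edgeR gave a log2 fold change of -1.06 at D1 (SE 0.26, adjusted p = 0.0114) and of -0.998 at D7 (SE 0.17, adjusted p = 0.000568).

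*unc-41* encodes stonin, an adaptor that retrieves synaptotagmin (chromosome V, 9966380 to 9976238, minus strand), and it went the other way. Its TPM was 1.65, 3.64 and 2.80 in *sams-1* libraries and 1.19, 1.81 and 2.30 in wild type at D1, with overlap. At D7 it was 3.73, 4.34 and 4.37 in *sams-1* libraries and 1.26, 1.21 and 1.06 in wild type. For *unc-41* edgeR gave a log2 fold change of 0.74 at D1 (SE 0.45, adjusted p = 0.176) and of 1.93 at D7 (SE 0.21, adjusted p = 3.28e-05). The endocytosis genes that fell did so beside lower summed TPM of germ line genes in the same libraries, and the part of those tissues was not tested. Their calls at D7 also rest in part on the scaling, since with upper-quartile factors *unc-11* and *unc-57* no longer pass and 2 members fall in place of 4.

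The G alpha genes *egl-30*, for Gq which promotes release, and *goa-1*, for Go which restrains it, passed at neither age in the main edgeR fit. DESeq2 called *goa-1* lower at D1 (adjusted p = 0.00418). *egl-30* (chromosome I, 1835661 to 1841965, plus strand) had 47.9, 79.5 and 111.8 TPM in *sams-1* libraries and 46.6, 36.8 and 62.4 TPM in wild type at D1. The D7 values were 112.4, 62.8 and 87.8 TPM in *sams-1* libraries and 53.0, 51.6 and 49.1 TPM in wild type. For *egl-30* edgeR gave a log2 fold change of 0.87 at D1 (SE 0.34, adjusted p = 0.055) and of 0.47 at D7 (SE 0.20, adjusted p = 0.053). *goa-1* (chromosome I, 7522116 to 7526716, plus strand) had 79.6, 67.6 and 92.1 TPM in *sams-1* libraries and 147, 127 and 123 TPM in wild type at D1. At D7 it had 127, 79.1 and 122 TPM in *sams-1* libraries and 155, 160 and 156 TPM in wild type. Its groups did not overlap at either age, while *egl-30* overlapped at D1. For *goa-1* edgeR gave a log2 fold change of -0.67 at D1 (SE 0.22, adjusted p = 0.0306) and of -0.47 at D7 (SE 0.16, adjusted p = 0.0212), and with every gene that had a count it passed at D7 (adjusted p = 0.00702). Muscle scaling and neuronal scaling each called *goa-1* lower at both ages. The joint fit of all 12 libraries called *egl-30* higher at D1, and upper-quartile factors and library totals called it higher at D7.

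All 3 genes of the cholinergic supply rose at D7. None passed at D1 in the main edgeR fit, where all 3 had an unadjusted p under 0.05. All 3 passed at D1 in the joint fit of all 12 libraries and with upper-quartile factors, which called 32.9% and 26.8% of all genes higher. In the main fits at both ages all 3 passed the filter only through the *sams-1* libraries. With every gene that had a count, edgeR called none of them at D1 and all 3 at D7. The D1 adjusted p values in that fit were 0.0264 for *unc-17*, 0.0782 for *cha-1* and 0.0479 for *cho-1*. *cho-1* encodes the choline transporter of cholinergic terminals (chromosome IV, 13209730 to 13214566, minus strand). At D1 it stood at 2.27, 1.78 and 1.25 TPM in *sams-1* libraries and 0.58, 0.50 and 0.54 TPM in wild type. At D7 it stood at 2.77, 2.26 and 2.50 TPM in *sams-1* libraries and 0.24, 0.34 and 0.24 TPM in wild type, from 81 and 10 counts summed over the 3 libraries of each group. The wild-type levels were low and tight, and no *sams-1* library came near them. For *cho-1* edgeR gave a log2 fold change of 1.74 at D1 (SE 0.44, adjusted p = 0.0129) and of 3.20 at D7 (SE 0.40, adjusted p = 7.41e-05), the second highest among the members tested, after *rab-3*.

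*cha-1*, choline acetyltransferase (chromosome IV, 3613931 to 3624697, minus strand), had 2.84, 3.08 and 2.76 TPM in *sams-1* libraries and 0.82, 1.09 and 1.53 TPM in wild type at D1. The D7 values were 2.80, 1.32 and 3.10 TPM in *sams-1* libraries and 0.69, 1.20 and 0.61 TPM in wild type. *sams-1* replicate 3 at D7 lay close to the highest wild-type library. For *cha-1* edgeR gave a log2 fold change of 1.41 at D1 (SE 0.41, adjusted p = 0.0211) and of 1.59 at D7 (SE 0.44, adjusted p = 0.00839), and the D7 call is lost when any single library other than *sams-1* replicate 3 is left out. *unc-17*, the vesicular acetylcholine transporter in the same locus, had 3.36, 1.22 and 2.64 TPM in *sams-1* libraries and 0.22, 0.51 and 0.66 TPM in wild type at D1, and 2.94, 1.32 and 2.73 against 0.33, 0.43 and 0.74 TPM at D7. *unc-17* and *cha-1* share 66 exonic bases on the same strand, so reads there can be split between them and both values are uncertain. The D7 call of *unc-17* is lost without wild-type replicate 1, wild-type replicate 3 or *sams-1* replicate 5.

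For GABA, *unc-25*, the glutamic acid decarboxylase that makes it (chromosome III, 12942651 to 12949883, plus strand), rose at D7. It had 7.98, 7.20 and 12.9 TPM in *sams-1* libraries and 3.23, 3.81 and 5.66 TPM in wild type at D1. At D7 it had 8.11, 11.8 and 7.49 TPM in *sams-1* libraries and 2.32, 1.68 and 2.82 TPM in wild type, with no overlap at either age. For *unc-25* edgeR gave a log2 fold change of 1.29 at D1 (SE 0.43, adjusted p = 0.0322) and of 2.12 at D7 (SE 0.32, adjusted p = 0.000239). The vesicular GABA transporter *unc-47* and its sorting partner *unc-46* were too low for the filter at both ages, with 24 and 10 counts over the *sams-1* libraries at D7 against 9 and 3 over wild type. *unc-47* had 0.89, 0.28 and 1.51 TPM in *sams-1* libraries and 0.10, 0.54 and 0.31 TPM in wild type at D7, which overlap.

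Glutamate was represented by *eat-4*, its vesicular transporter, which was also below the filter. It had 2.17, 0.53 and 1.53 TPM in *sams-1* libraries and 0.61, 0.10 and 0.78 TPM in wild type at D1, and 1.21, 0.38 and 1.03 against 0.28, 0.22 and 0.29 TPM at D7. Only the D7 groups were separate. *eat-4* shares exonic bases with highly counted genes on the opposite strand, *ZK512.2* among them, so its low counts are uncertain.

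The monoamine genes split. *tph-1*, the tryptophan hydroxylase of serotonergic neurons (chromosome II, 7549335 to 7551983, plus strand), had 0.29, 1.01 and 0.48 TPM in *sams-1* libraries and 0.08, 0 and 0.74 TPM in wild type at D1, too low to be tested. The D7 values were 1.61, 1.63 and 1.10 TPM in *sams-1* libraries and 0.09, 0.19 and 0.37 TPM in wild type, from 42 and 7 summed counts. Here the groups were clearly apart. The log2 fold change at D7 was 2.77 (SE 0.53, adjusted p = 0.000981), and *tph-1* shares 43 exonic bases with *ZK1290.10* on the opposite strand. *bas-1*, the decarboxylase shared by serotonin and dopamine synthesis, rose at D7 with 5.66, 7.23 and 6.14 TPM in *sams-1* libraries against 3.52, 2.00 and 3.30 TPM in wild type, and that call is lost without any single library of the 6. The vesicular monoamine transporter *cat-1* and the tyrosine hydroxylase *cat-2* were below the filter, with 37 and 29 counts over the *sams-1* libraries at D7 and 13 and 5 over wild type.

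*tdc-1* encodes the tyrosine decarboxylase that makes tyramine, and *tbh-1* the hydroxylase that turns tyramine into octopamine. Both are known to be expressed in the gonadal sheath cells of *C. elegans* as well as in neurons. *tdc-1* (chromosome II, 8270597 to 8273615, plus strand) had 57.3, 12.3 and 8.82 TPM in *sams-1* libraries and 154, 154 and 113 TPM in wild type at D1. At D7 it had 53.0, 60.4 and 64.7 TPM in *sams-1* libraries and 179, 182 and 172 TPM in wild type. No *sams-1* library reached the wild-type range at either age, and *sams-1* replicate 1 at D1 was several times above replicates 3 and 5. For *tdc-1* edgeR gave a log2 fold change of -2.43 at D1 (SE 0.65, adjusted p = 0.0154) and of -1.53 at D7 (SE 0.12, adjusted p = 8.09e-06), and of the 8 transmitter genes tested at D7 it alone fell. It shares 73 exonic bases with the highly counted *gei-14* on the opposite strand.

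*tbh-1* (chromosome X, 15500256 to 15504895, minus strand) was picked out after its values were seen. At D1 it had 147, 14.4 and 7.14 TPM in *sams-1* replicates 1, 3 and 5 and 147, 28.1 and 28.2 TPM in wild-type replicates 1, 3 and 5. The D7 values were 63.1, 47.6 and 97.9 TPM in *sams-1* libraries and 99.4, 93.5 and 106 TPM in wild type. Replicate 1 was high in both groups at D1, and the groups overlapped at both ages. For *tbh-1* edgeR gave a log2 fold change of -0.29 at D1 (SE 1.13, adjusted p = 0.82) and of -0.51 at D7 (SE 0.22, adjusted p = 0.0563). The summed TPM of 17 oocyte markers was 4035 in *sams-1* replicate 1 at D1, against 670 and 428 in replicates 3 and 5, and 11370, 8739 and 7109 in wild-type replicates 1, 3 and 5. At D7 that sum was 6961, 5474 and 8675 in *sams-1* libraries and 12080, 12270 and 12270 in wild type. The part of gonadal tissue in the values of *tdc-1* and *tbh-1* was not tested.

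**Figure D3:**
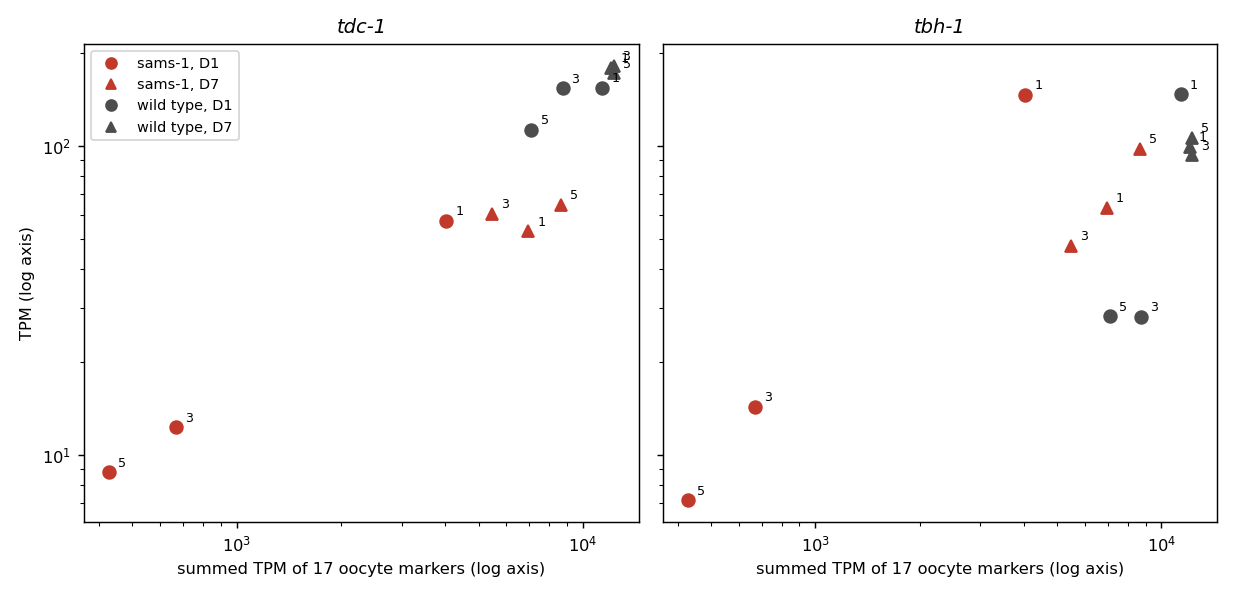
TPM of *tdc-1* and *tbh-1* against the summed TPM of 17 oocyte markers, both on log axes, 1 point per library with its replicate number, *sams-1* in red and wild type in grey, circles for D1 and triangles for D7. *sams-1* replicates 3 and 5 at D1 have the lowest sums (670 and 428) and the lowest *tdc-1* and *tbh-1* levels, and replicate 1 at D1 stands high for *tbh-1* in both groups.

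These genes also dominated the transmitter class by level. In wild type *tdc-1* and *tbh-1* together held 90.6% to 96.5% of the summed TPM of the 13 transmitter genes at D1 and 96.8% to 97.4% at D7. In *sams-1* libraries the share was 86.6%, 50.7% and 31.05% at D1 and 79.8%, 79.3% and 85.1% at D7. The remaining 11 transmitter genes summed to 31.5, 25.9 and 35.4 TPM in *sams-1* libraries and 11.0, 9.53 and 14.6 TPM in wild type at D1. At D7 they summed to 29.4, 28.1 and 28.5 TPM in *sams-1* libraries and 8.21, 7.38 and 9.25 TPM in wild type. At D7 the class total was 146, 136 and 191 TPM in *sams-1* libraries and 287, 283 and 288 TPM in wild type, lower although several members rose. At D1 the totals overlapped.

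Neuropeptide processing was the most uniform role, since all 4 genes rose at both ages in the main edgeR fit, *egl-3* only narrowly at D1. *egl-21*, the carboxypeptidase E that trims cut peptides (chromosome IV, 10478442 to 10481844, minus strand), had 111, 103.9 and 141 TPM in *sams-1* libraries and 40.6, 26 and 35.8 TPM in wild type at D1. At D7 it had 209, 115 and 168 TPM in *sams-1* libraries and 27.6, 30.6 and 26.6 TPM in wild type. The lowest *sams-1* library was well above the highest wild-type library at both ages. For *egl-21* edgeR gave a log2 fold change of 1.86 at D1 (SE 0.26, adjusted p = 0.00289) and of 2.58 at D7 (SE 0.20, adjusted p = 8.09e-06). *ida-1*, the dense-core vesicle membrane protein IA-2 (chromosome III, 5755539 to 5765816, plus strand), had 22.5, 26.2 and 35.9 TPM in *sams-1* libraries and 8.84, 8.39 and 10.3 TPM in wild type at D1. The D7 values were 34.4, 19.2 and 35.8 TPM in *sams-1* libraries and 7.77, 7.51 and 6.61 TPM in wild type. Its groups too were separate at both ages. For *ida-1* edgeR gave a log2 fold change of 1.69 at D1 (SE 0.28, adjusted p = 0.00386) and of 2.08 at D7 (SE 0.23, adjusted p = 3.66e-05).

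*egl-3*, the proprotein convertase, had 61.1, 59.9 and 81.7 TPM in *sams-1* libraries and 30.3, 15.7 and 34.1 TPM in wild type at D1, and 140, 60.6 and 123 against 19.5, 24.2 and 18.5 TPM at D7. *sbt-1*, the 7B2 chaperone of that convertase, had 135, 124 and 134 TPM in *sams-1* libraries and 41.4, 41.2 and 44.4 TPM in wild type at D1, and 219, 155 and 220 against 36.4, 38.5 and 32.7 TPM at D7. The convertase and its chaperone were separate between the groups at both ages, with *sams-1* replicate 3 at D7 the lowest of its group for all 4 genes. The 4 D1 calls hold in fewer fits than those at D7. *egl-21* loses its call without wild-type replicate 1, wild-type replicate 3, *sams-1* replicate 3 or *sams-1* replicate 5. The D1 call of *egl-3* (adjusted p = 0.00983, edgeR) is lost whichever single library is left out. That call is also lost with RLE factors, every gene that had a count, a CPM filter, limma, muscle scaling or neuronal scaling.

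Release machinery and transmitter supply were set side by side on their counts and medians, with no test between the classes. Of all genes tested at D7, 35.6% were called higher and 29.4% lower. At that age 11 of 22 release genes (50%) rose and 3 (13.6%) fell. Further, 6 of the 8 transmitter genes tested rose and 1 fell, and 4 of 4 peptide genes rose. The filter chose 4 of those 6 (*unc-17*, *cha-1*, *cho-1* and *tph-1*) only because they were well counted in the *sams-1* libraries, so the count of 6 is not a comparison with release genes. The median log2 fold change at D7 was 1.296 for release, 1.85 for transmitter and 2.47 for peptide genes. With every gene that had a count, 24.7% of all genes were called higher at D7. In that fit 12 of 22 release genes, 7 of all 13 transmitter genes and 4 of 4 peptide genes rose. The D7 medians were 1.24, 1.70 and 2.42 in that order of classes. At D1 17.4% of all genes tested were called higher and 16.8% lower. There 8 release genes (36.4%) rose and 1 fell, and 4 peptide genes rose. In the main edgeR fit 0 of 7 transmitter genes tested were called. Of these 7, 5 had an unadjusted p under 0.05 with higher values and 1 with lower, DESeq2 called 2 higher and 1 lower, and limma called 0 higher and 1 lower. The joint edgeR fit of all 12 libraries called *unc-17*, *cha-1*, *cho-1*, *unc-25* and *bas-1* higher and *tdc-1* lower. That fit called 32.9% of all genes higher and 22.4% lower. With upper-quartile factors *unc-17*, *cha-1*, *cho-1* and *bas-1* rose, where 26.8% of all genes did. Medians at D1 in the main fit were 1.16, 1.41 and 1.69. Of the transmitter genes tested at D1, *unc-17*, *cha-1* and *cho-1* passed the filter only through the *sams-1* libraries. With every gene that had a count the D1 medians were 0.93, 1.05 and 1.46. The transmitter genes were also far lower in level, with a median of 1.32 to 2.77 TPM in *sams-1* libraries and 0.33 to 0.43 TPM in wild type at D7, against 13.2 to 14.1 and 4.14 to 4.87 TPM for release genes. Within release the endocytosis genes had a median of -0.85 at D7 and the SNARE group 2.41, and the roles inside a class thus lay farther apart than the class medians did.

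A change of scaling shifts the genes of a fit by nearly the same amount, so it could hardly reorder the class medians. Their order was the same under each of the 6 scalings, but their sign was not. At D1 the release and transmitter medians changed places without wild-type replicate 1 (1.22 and 1.15) and without both replicate 1 libraries (1.34 and 1.24). Scaling the libraries on the 25 body wall muscle genes shifted the median of all genes tested by more than 1 log2 unit, to -0.97 at D1 and -0.99 at D7. The release median became -0.34 and the transmitter median -0.15 at D1, with the peptide median at 0.13, and 0 members rose and 5 fell, against 3.91% and 39% of all genes. At D7 under that scaling the medians stayed positive, at 0.17, 0.73 and 1.29, and 9 members rose and 8 fell, against 13.9% and 48.6% of all genes. With factors from the 16 neuronal genes outside the synapse, 1 member rose and 4 fell at D1, against 7.22% and 22% of all genes, and 18 rose and 6 fell at D7, against 23.7% and 29.9%.

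**Figure D4:**
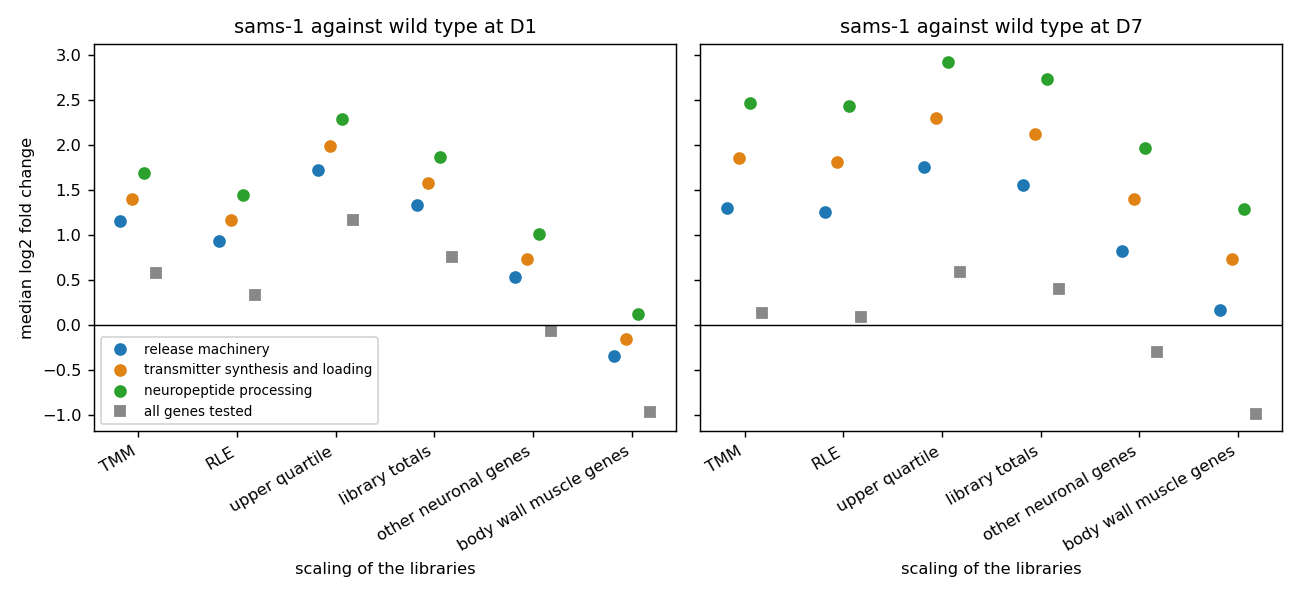
Median log2 fold change, *sams-1* against wild type, of release, transmitter and peptide genes (circles) and of all genes tested (squares) under 6 scalings of the libraries, at D1 and at D7. Peptide genes lie highest and release genes lowest of the classes in each, an order that a change of scaling can hardly alter. Body wall muscle scaling puts the release and transmitter medians below 0 at D1 (-0.34 and -0.15).

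No member was called between the ages in the main edgeR fit, with TMM factors on all 12 libraries. Between D7 and D1, 0 of 38 members tested passed in the *sams-1* libraries, where 3.29% of all 14193 genes were called higher and 6.34% lower, and 0 passed in wild type, where 2.94% were called higher and 2.94% lower. At an unadjusted p under 0.05, 1 member was higher and 2 were lower with age in *sams-1* libraries, and 2 were higher and 3 lower in wild type. Other tools called *unc-57* higher with age in the *sams-1* libraries (DESeq2, adjusted p = 0.00144, and limma, adjusted p = 0.0054), and DESeq2 called *ric-4* and *cpx-1* lower with age in wild type (adjusted p = 0.0027 and 0.0028). By edgeR *cpx-1* had a log2 fold change with age of -0.40 (SE 0.38, adjusted p = 0.45) in *sams-1* libraries and -1.50 (SE 0.41, adjusted p = 0.0283) in wild type. Without *sams-1* replicate 1 at D1, 3 members passed with age in the *sams-1* libraries, all higher at D7, namely *unc-57*, *tbh-1* and *tdc-1*, but 21% of all genes were called higher in that fit. With library totals *unc-57* also passed. Scaling on body wall muscle genes gave 18 members higher with age in *sams-1* libraries and 3 in wild type, where it called 52.3% and 14.2% of all genes higher, so neither count says anything of the members. Class medians with age were -0.27, -0.05 and 0.27 in *sams-1* libraries for release, transmitter and peptide genes, and 0.13, -0.35 and -0.28 in wild type.

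The interaction of label and age asked whether the difference between labels changed from D1 to D7. In the main edgeR fit 0 of 38 members passed, where 0.0141% of all genes were called higher and 0.0141% lower, and DESeq2 and limma also called 0. Without *sams-1* replicate 1 at D1, the library with the high *tbh-1*, 1 member passed, *tdc-1*, and 11.4% of all genes were called higher and 2.12% lower in that fit. At an unadjusted p under 0.05 there was 1 member higher, *sbt-1* at 0.56 (SE 0.24, adjusted p = 0.231), and 1 lower, *syd-2* at -1.28 (SE 0.56, adjusted p = 0.238). All 4 peptide genes had a positive interaction value, between 0.11 and 0.74. The larger log2 fold changes at D7 of *rab-3*, *ric-4*, *cpx-1* and *cho-1* are thus not shown to differ from those at D1.

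**Figure D5:**
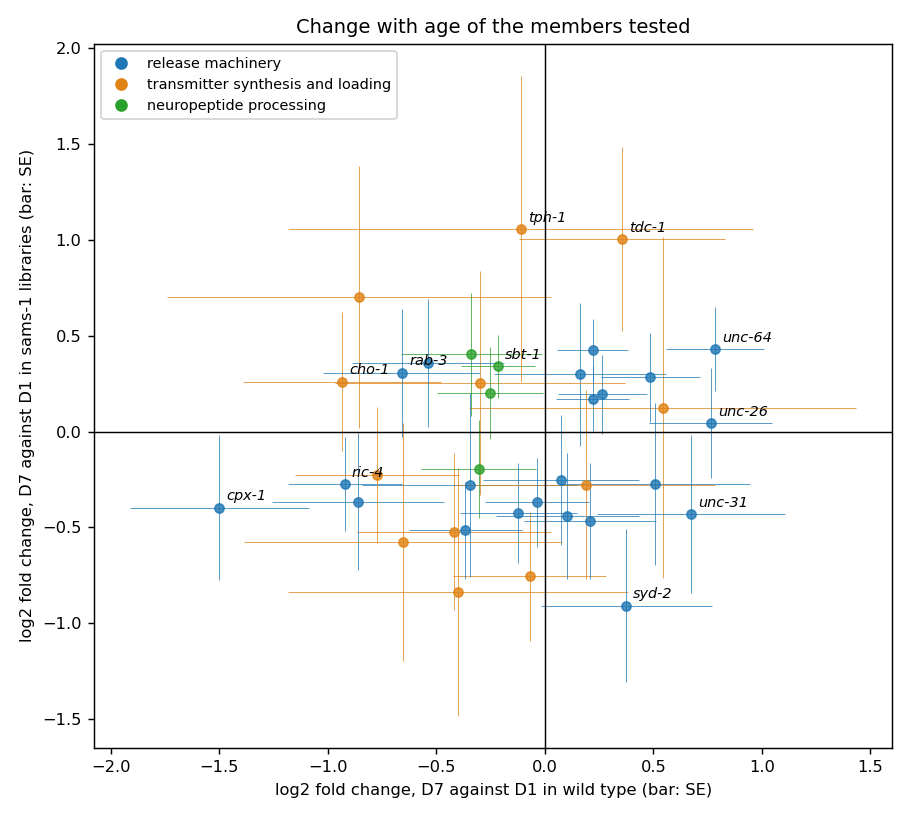
Log2 fold change with its SE between D7 and D1 for the 38 members tested, in *sams-1* libraries (vertical axis) and wild type (horizontal axis), coloured by class. The 4 peptide genes lie left of 0 for wild type (-0.34 to -0.22), and *cpx-1* lies farthest left (-1.50).

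Further genes of the same pathways were counted from lists. Of 42 further release genes 10 rose and 7 fell at D1, and 19 rose and 8 fell at D7, with a median log2 fold change of 0.74 at D7. The D1 shares, 23.8% and 16.7%, lie near the 17.4% and 16.8% of all genes tested, and the D7 shares were 45.2% and 19%, against 35.6% and 29.4%. *snt-4*, another synaptotagmin, had a log2 fold change of 2.61 (SE 0.19) at D7 and 1.94 (SE 0.31) at D1. *aex-6*, a RAB-27 GTPase, and *rbf-1*, a rabphilin, had 2.46 (SE 0.23) and 2.89 (SE 0.27) at D7. Of 22 further transmitter genes 5 rose and 0 fell at D1, and of 21 tested at D7 11 rose and 1 fell, with *snf-11*, a GABA transporter of the plasma membrane, at 2.20 (SE 0.35), *gta-1*, the GABA transaminase, at 1.33 (SE 0.12) and *glt-4*, a glutamate transporter, at 2.14 (SE 0.24). Of 8 further peptide processing genes 5 rose at D1, and 5 rose and 2 fell at D7. *pgal-1* and *pghm-1*, which amidate peptides, had 2.66 (SE 0.18) and 2.54 (SE 0.18) at D7, and the convertase *aex-5* 3.36 (SE 0.27).

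On the receiving side, 50 transmitter receptor and receptor assembly genes were listed. Of 39 tested at D1, 5 rose and 0 fell, and of 37 tested at D7, 26 rose and 0 fell, with a median log2 fold change of 1.96. These are 12.8% higher at D1, under the 17.4% of all genes, and 70.3% at D7, against 35.6%. The median level of the 50 genes at D7 was 0.47 to 0.495 TPM in wild type and 1.48 to 2.04 TPM in *sams-1* libraries. Genes so low in wild type can pass the filter through the *sams-1* libraries alone, which favours calls of a rise. How many did so was not counted, so the D7 share is not a comparison with all genes. The list summed to 146 to 187 TPM in *sams-1* libraries and 43.4 to 49.3 TPM in wild type at D7. *ric-3*, a chaperone of acetylcholine receptors, had a log2 fold change of 2.17 (SE 0.21) at D7, and the glutamate-gated chloride channel genes *glc-1* and *glc-4* had 2.22 (SE 0.23) and 3.94 (SE 0.44). Neuronal genes outside the synapse had a lower median of 0.72 at D7, and in that list *maco-1* fell by 1.60 (SE 0.12) and *unc-16* fell by 1.10 (SE 0.17) on the log2 scale, while *casy-1* rose by 1.46 (SE 0.21).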

How the data were processed

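The data are 12 libraries of RNA from whole animals, 3 for each label and age. Reads were trimmed by the authors (Trimmomatic 0.39) and aligned with STAR (2.710b as the submitters' processing notes write it), and RSEM 1.3.3 gave the deposited expected count of each gene on the ws245 annotation. The same step gave the deposited TPM, which the authors' software corrects for effective length. FPKM was not used. The authors tested with DESeq2 1.38. Library making is credited to different companies in the labels and the paper.

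Python 3.11.15 with pandas 2.3.3 read the files, and figures were drawn with matplotlib 3.10.9. At most 2.41% of the 46925 gene identifiers in a library had an expected count that was not whole, and all counts were rounded. In the library with that share only 17300 genes had a count. In R 4.3.3, edgeR 4.0.16 (quasi-likelihood, TMM factors, filterByExpr defaults, Benjamini-Hochberg adjustment over all genes tested) compared labels at each age on 6 libraries, and ages and the interaction on 12. A gene rose or fell at an adjusted p under 0.01. DESeq2 1.42.0 and limma 3.58.1 on log2(TPM + 1) were other tools. All 3 were tested on simulated data. No batch is labelled beyond the replicate number.

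The 39 members and the other gene lists were chosen with earlier results of these data known. Full statistics are given for the members with the highest and the lowest D7 value in each role, for members called against the prevailing direction and for *sams-1*. Up to 3 genes of each other list are named, by smallest D7 adjusted p. Gene positions come from Ensembl release 115 (WBcel235), joined by gene identifier. Strand was not used in counting. Alternatives covered the scaling, the filter, the tool and the threshold, a joint fit of all libraries, a replicate block and leaving out each library.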

Additional observations from a re-analysis of the deposited data

Results flagged for a closer look

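*sbt-1*, the 7B2 chaperone of the peptide convertase, had TPM ranges at D7 on opposite sides of its D1 ranges under the different labels. The main edgeR fit called neither age difference (log2 fold change 0.34, adjusted p = 0.14, in *sams-1* libraries and -0.22, adjusted p = 0.432, in wild type). Its TPM was above every D1 value in all 3 *sams-1* libraries at D7, and below every D1 value in all 3 wild-type libraries at D7. The interaction of label and age was 0.56 on the log2 scale (adjusted p = 0.231, edgeR), which does not pass the threshold.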

How the results depend on the processing

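Calls at D7 moved less than calls at D1. At D1, the 12 members higher and 1 lower became 20 and 5 at an adjusted p under 0.05, 21 and 3 with all 12 libraries in 1 fit, and 6 and 2 with every gene that had a count. Without both replicate 1 libraries, chosen after the data were seen, they were 7 and 2. Body wall muscle scaling gave 0 and 5, other neuronal genes 1 and 4, and the lower count alone was 5 with DESeq2, 2 with limma, 2 with RLE factors and 0 with upper-quartile factors. Leaving out single libraries gave 0 to 7 higher and 0 to 3 lower. At D7, the 21 higher and 4 lower became 9 and 8 with muscle scaling, and the lower count was 2 with upper-quartile factors and 2 at 2-fold or more. For age, *sams-1* libraries had 18 higher with muscle scaling (52.3% of all genes) and 1 each with library totals, DESeq2 and limma, with 0 to 3 when single libraries were left out. Wild type had 3 higher with muscle scaling (14.2% of all genes), 1 higher and 2 lower at an adjusted p under 0.05, and 2 lower with DESeq2. The interaction had 0 to 1 higher when single libraries were left out. Among all genes called, 51% were higher at D1 with TMM, 78.9% with upper-quartile factors, 65.5% with library totals, 24.7% with other neuronal genes and 9.09% with muscle genes, and at D7 these shares were 54.8%, 72.8%, 65.7%, 44.2% and 22.2%.

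Among log2 fold changes of named genes, *snb-1* at D1 turned to -0.22 with RLE factors and with DESeq2, -1.57 with muscle scaling, -0.67 with neuronal scaling, -0.19 with every gene that had a count, -0.005 with a CPM filter, -0.023 with limma, and -0.113 to 0.062 when single libraries were left out. Muscle scaling at D1 also turned *cpx-1* to -0.49, *syd-2* to -0.94, *unc-41* to -0.82, *egl-30* to -0.60, *cha-1* to -0.15, *unc-25* to -0.29 and *sams-1* to -1.03, and neuronal scaling turned *syd-2* to -0.06 and *sams-1* to -0.16. At D7 muscle scaling turned *snb-1* to -0.82, *unc-31* to -0.39 and *egl-30* to -0.71, and neuronal scaling turned *snb-1* to -0.13 and *egl-30* to -0.035. The cause was not tested. The other named values kept their sign, 260 of them with their side of the threshold at D1 and 304 at D7, while 29 and 11 newly passed and 34 and 20 no longer passed.

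Between the labels, same-numbered deviations from the group means correlated at 0.20, 0.08 and 0.13 at D1 and at -0.00 to 0.05 at D7. Between the ages, replicate 1 of the *sams-1* libraries correlated at -0.323, and the other pairs at -0.022 to 0.115. Differently numbered libraries were not compared, so these values do not settle whether the numbers pair the libraries. With the replicate block 7 members rose and 2 fell at D1, and 21 rose and 5 fell at D7. Depth limited the transmitter genes most, with 5 members at D7 and 6 at D1 too low to be tested.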
